A study of Capra hircus with 9 samples.

Results

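The muscle miRNAs, often called myomiRs, are a small group of microRNAs that striated muscle makes at high levels. miR-1 and miR-133a are transcribed together and are known in heart and skeletal muscle, where miR-1 favours differentiation and miR-133 favours myoblast growth in mouse. miR-206 and miR-133b form a second pair that is largely restricted to skeletal muscle, and miR-206 is known from newborn and regenerating mouse muscle. miR-208b and miR-499 lie inside myosin heavy chain genes and are known from heart and slow fibres in mouse. The submandibular gland is a salivary gland, a secretory epithelial organ and not a muscle.

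Members were all entries named miR-1, miR-133, miR-206, miR-208 or miR-499, with any letter, arm or ending, and 17 of the 2189 mature miRNA entries met that rule. Of these, 8 are goat miRNAs with the prefix chi- and 9 have a general name with -x, -y or -z at the end. The filter on low counts kept 10 of the 17, among 937 entries in all. The samples were submandibular glands of healthy female Lubo goats, with 3 goats at each of 3 ages (1, 12 and 24 months), all kept under shared conditions and without treatment, and each goat gave 1 small RNA library. Libraries are named by the number in their label, which ran 1, 2 and 3 for goats of 1 month, 3, 4 and 5 for goats of 12 months and 2, 3 and 5 for goats of 24 months. Libraries of 12 and 24 months are together called adult here.

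The sequences are shown because they decide which entries can be told apart. They are the mature sequences of the deposited table, written 5′ to 3′ as DNA, with the seed (bases 2 to 8), the stretch that pairs with target mRNAs, in capitals.
chi-miR-1: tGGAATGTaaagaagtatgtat
miR-1-y: tGGAATGTaaagaagtatgtacc
chi-miR-206: tGGAATGTaaggaagtgtgtggt
chi-miR-133a-3p: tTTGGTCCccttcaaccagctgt
chi-miR-133b: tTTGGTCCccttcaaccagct
miR-133-z: tTGGTCCCcttcaaccagctgtaa
chi-miR-499-5p: tTAAGACTtgcagtgatgttt
chi-miR-499-3p: gAACATCAcagcaagtctgtgc
chi-miR-208b: tATAAGACgaacaaaaggtttg
miR-208-y: aTAAGACGagcaaaaagcttgt

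chi-miR-1 and chi-miR-206 share their seed and their first 10 bases and then part, so full-length reads of the pair can be told apart. The seed GGAATGT was found in 5 entries of the whole table, all of them members. chi-miR-133b, as listed with 21 bases, is the beginning of the 23-base chi-miR-133a-3p, so a read of chi-miR-133a-3p that lost its last bases has the sequence of chi-miR-133b, and the values of the pair are uncertain to that degree. miR-1-y shares its first 21 bases with chi-miR-1 and differs only in its tail, and miR-499-x is chi-miR-499-5p with 3 bases added at its end, so both are variant forms of the same RNAs and no separate evidence. miR-133-z starts 1 base further in than chi-miR-133a-3p, which moves its seed from TTGGTCC to TGGTCCC. The seeds of chi-miR-499-5p (TAAGACT) and miR-208-y (TAAGACG) part at their last base, while chi-miR-208b is listed with 1 more base at its start and so reads ATAAGAC. No other entry of the table shared a run of 16 or more bases with a member. In the RefSeq gene table of goat assembly ARS1.2, MIR133A lies next to MIR1, MIR133B next to MIR206, and MIR499 next to MYH7B, a myosin heavy chain gene.

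Library totals ran from 8288492 to 13277448 counts, and at this depth 3 counts correspond to 0.212 to 0.386 CPM (read counts scaled to a fixed library total with edgeR's TMM factors). Secretory miRNAs of the miR-148 and miR-375 families took 14.2% to 17.9% of counts in the 6 libraries of 12 and 24 months and 1.38% to 8.53% at 1 month. At 1 month library 2 stood apart, with 11.0% of counts on leukocyte miRNAs (miR-142, miR-150, miR-155 and miR-223), where libraries 1 and 3 had 2.62% and 4.46%. Its epithelial miRNAs took 0.797%, and those of libraries 1 and 3 took 5.31% and 3.63%. In all 6 adult libraries leukocyte miRNAs took less than in any library of 1 month, and epithelial miRNAs took more. The muscle miRNA entries together took 0.0155% to 0.0611% of counts in 8 of the 9 libraries. They took 0.247% in 12-month library 4 (Wilson 95% interval 0.244 to 0.25%, counting error only), which stood apart from the rest. In whole tissue, fewer cells of a type and less of its RNA per cell cannot be told apart.

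**Figure D1:**
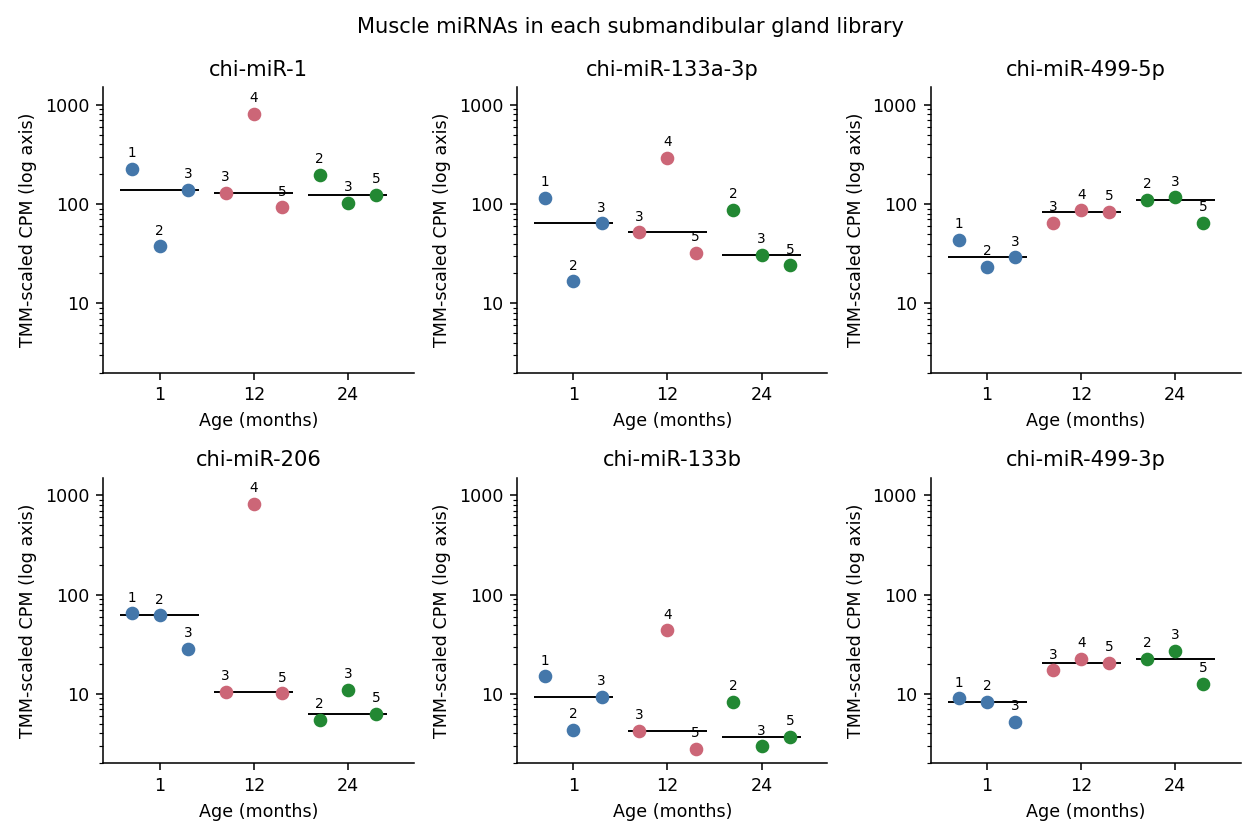
Level of each of the 6 main muscle miRNAs (TMM-scaled CPM, log axis) in the 9 libraries by age in months. Each point is 1 goat, marked with its library number, and black lines are medians of 3. Library 4 at 12 months is the highest of the 9 for chi-miR-1, chi-miR-206, chi-miR-133a-3p and chi-miR-133b, at 812, 826, 294 and 43.8 CPM, and lies among the other adult libraries for both arms of miR-499.

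The members fell into groups of unlike behaviour. chi-miR-1, chi-miR-206, chi-miR-133a-3p and chi-miR-133b stood far higher in 12-month library 4 than in any other library. miR-499 did not, and was higher at 12 and 24 months than at 1 month. With 12-month library 4 left out, which was singled out by its height in these miRNAs, chi-miR-206 was lower at 12 and 24 months than at 1 month. Only libraries 3 and 5 then stood for 12 months. With all libraries neither difference passed (log2 fold changes 2.45 and −2.76, edgeR adjusted p = 0.199 and 0.152). For 24 against 1 month, leaving that library out hardly moved the fold change (−2.74) and lowered its standard error from 1.37 to 0.50.

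chi-miR-206 is the member most restricted to skeletal muscle. It stood at 65.0, 61.9 and 28.4 CPM at 1 month. In 12-month libraries 3, 4 and 5 it stood at 10.6, 826 and 10.2 CPM, and at 24 months at 5.49, 11.0 and 6.33 CPM. The level in 12-month library 4 was thus 78.2 times that of the next 12-month library and 12.7 times the highest of the other 8. All 3 goats of 24 months lay below all 3 of 1 month, as was so for 25.8% of all entries tested. Of the 3 goats of 12 months, 2 also lay below all of 1 month. At 24 months chi-miR-206 averaged 7.62 ± 2.98 CPM, against 51.8 ± 20.3 CPM at 1 month (SD, n = 3 each). The log2 fold change was −2.76 (SE 1.37) and did not pass the test over all libraries (edgeR quasi-likelihood test, Benjamini-Hochberg adjusted p = 0.152). Without 12-month library 4 it was −2.74 (SE 0.50, adjusted p = 0.006), in a fit that called 217 of 1000 entries, 156 of them lower. That library belongs to neither age compared and was singled out by its height in chi-miR-206 itself. Leaving it out hardly moved the fold change and lowered the standard error, so the call depends on that choice. From the 6 libraries of these ages alone, also without library 4, the log2 fold change was −2.83 (adjusted p = 0.00938). Without 1-month library 2 the log2 fold change was −2.63 (adjusted p = 0.293).

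For 12 months against 1 month, chi-miR-206 had a log2 fold change of 2.45 (SE 1.34, adjusted p = 0.199), a value set by 12-month library 4. Without that library, which leaves libraries 3 and 5 at 12 months, the direction turned, to −2.30 (SE 0.57, adjusted p = 0.036). Of the 11 members then tested, chi-miR-206 alone was called in that comparison, against 83 of 1000 entries, 62 of them lower. Between 24 and 12 months chi-miR-206 had −5.21 (SE 1.53, adjusted p = 0.998) with 12-month library 4 and −0.44 (SE 0.53, adjusted p = 1) without it. The variant miR-206-y, which was too rare for the filter, had 202 counts in 12-month library 4, 18 and 6 in 1-month libraries 2 and 1, and 0 in the other 6 libraries. It was thus seen at 1 month and in 12-month library 4 only.

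chi-miR-1, which restrains growth genes in heart and skeletal muscle of mice, stood at 227, 37.55 and 138 CPM at 1 month. In 12-month libraries 3, 4 and 5 it stood at 130, 812 and 92.4 CPM, and at 24 months at 197, 103 and 124.5 CPM. Library 4 exceeded the next highest of the 9, which was 1-month library 1, by 3.57 times. Apart from that library the ages overlapped throughout. At 12 months the mean was 345 ± 405 CPM, against 134 ± 94.9 CPM at 1 month (log2 fold change 1.36, SE 0.83, adjusted p = 0.24), and without library 4 the value was −0.27 (SE 0.66, adjusted p = 0.796). The 24-month mean of 141.6 ± 49.5 CPM differed from that of 1 month by 0.07 on the log2 scale (SE 0.81, adjusted p = 0.955), a sign that several settings turned, and without 1-month library 2 the value was −0.39 (adjusted p = 0.753). miR-1-y, the form with another tail, was sharper still, at 211 CPM in 12-month library 4, against 31.1 CPM in 1-month library 1 and 3.50 to 15.8 CPM in the other 7 libraries. A further form, miR-1-z, had 78 counts in 12-month library 4 and at most 9 in any other library.

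chi-miR-133a-3p, which represses the muscle regulator SRF in mouse, followed chi-miR-1 closely. It stood at 116, 16.6 and 63.9 CPM at 1 month. The 12-month libraries 3, 4 and 5 had 52.0, 294 and 32.3 CPM, and those of 24 months 87.1, 30.6 and 24.1 CPM. The lowest of all 9 libraries for both miRNAs was 1-month library 2, the one rich in leukocyte miRNAs. chi-miR-206 was not low there, at 61.9 CPM. At 24 months, library 2 was the highest for chi-miR-1, chi-miR-133a-3p, chi-miR-133b and chi-miR-208b, and the lowest for chi-miR-206. For 12 months against 1 month chi-miR-133a-3p had a log2 fold change of 0.95 (SE 0.89, adjusted p = 0.441), and −0.63 (SE 0.79, adjusted p = 0.587) without 12-month library 4. For 24 months against 1 month it had −0.47 (SE 0.89, adjusted p = 0.739). Without 1-month library 2 these were 0.47 (adjusted p = 0.743) for 12 against 1 month and −0.94 (adjusted p = 0.478) for 24 against 1 month.

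chi-miR-133b stood at 15.1, 4.38 and 9.39 CPM at 1 month. In 12-month libraries 3, 4 and 5 it stood at 4.25, 43.8 and 2.78 CPM, and at 24 months at 8.39, 2.96 and 3.68 CPM, so that its order of libraries was nearly that of chi-miR-133a-3p. Its fold changes did not pass either: 0.82 (SE 0.92, adjusted p = 0.525) for 12 against 1 month, turning to −1.44 (SE 0.71, adjusted p = 0.184) without 12-month library 4, and −0.93 (SE 0.94, adjusted p = 0.479) for 24 against 1 month. The other forms of miR-133 were rare. chi-miR-133a-5p, the other arm, miR-133-y and miR-133-z had 31, 53 and 45 counts in 12-month library 4, and none exceeded 17 counts in another library.

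**Figure D2:**
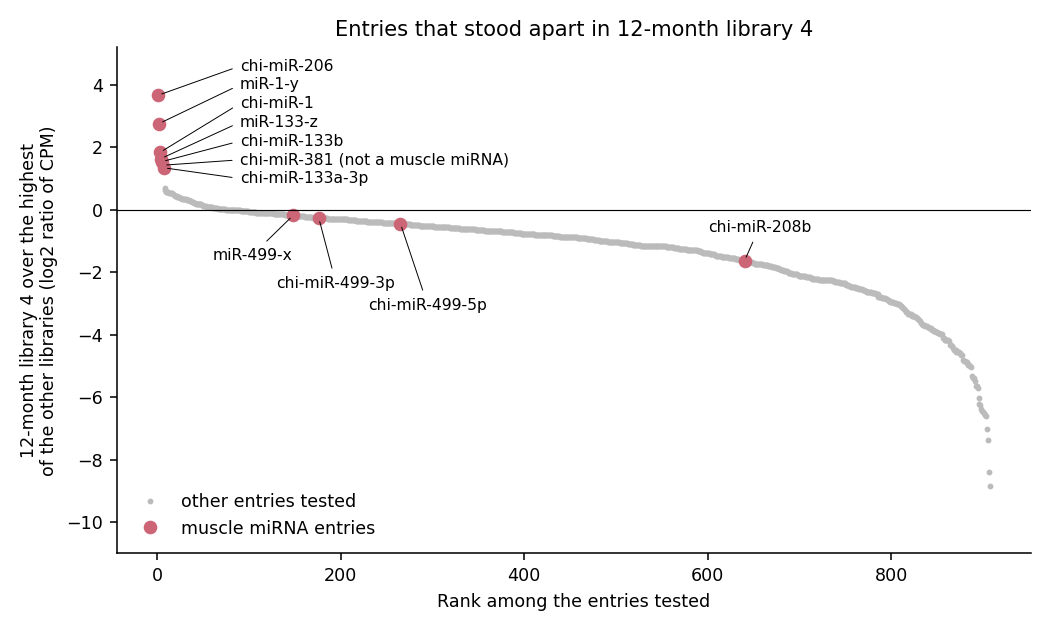
All entries tested, ordered by the level in 12-month library 4 over the highest of the other 8 libraries (log2 ratio, y axis). Red points are the 10 muscle miRNA entries tested and grey points are the rest, and 30 entries at 0 in that library are not drawn. Of the first 7 entries 6 are muscle miRNAs, several of them forms of the same RNA, and the other is chi-miR-381. One of the 6, miR-133-z, passed the filter only with 12-month library 4 counted, so its rank is no sign of that height.

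The height of 12-month library 4 can be set against the whole table, by a description chosen after the values were seen. It was at least 4 times the highest of the other 8 libraries for 2 of the 937 entries tested (0.213%), and both were members, chi-miR-206 and miR-1-y. Ordered by that ratio, ranks 1 to 5 and 7 were held by chi-miR-206, miR-1-y, chi-miR-1, miR-133-z, chi-miR-133b and chi-miR-133a-3p, with ratios of 12.7 to 2.54. Rank 6 was chi-miR-381, at 2.69, and rank 8 stood at 1.62. Library 4 was the highest of the 9 for 6 of the 10 members tested, miR-133-z among them, against 8.32% of all entries tested. These 6 are forms of miR-1, miR-206 and miR-133 only, and several share most of their sequence, so they are not separate observations. miR-133-z, with 45 counts there, 16 and 13 in the next libraries and at most 6 elsewhere, reached the 3 libraries that the filter asks for only with library 4 among them, so its rank is no sign of that height. The other 4 were the 3 tested forms of miR-499 and chi-miR-208b, of which chi-miR-499-3p, chi-miR-499-5p and chi-miR-208b held ranks 176, 265 and 640.

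Lists of other cell types did not show this height. In 12-month library 4 the smooth muscle miRNAs miR-143 and miR-145 took 5.35% of counts, against 7.1% and 7.26% in 12-month libraries 3 and 5, with all 8 entries of that list detected in every library. Endothelial miR-126 took 0.781%, against 0.939% and 0.864%, and neural miRNAs took 0.00612%, against 0.00781% and 0.0102%. Epithelial miRNAs took 11.2%, against 9.76% and 9.74%, and secretory miRNAs 16.4%, against 14.2% and 16.8%. Red cell miRNAs (miR-144 and miR-451) took 0.282%, against 0.156% and 0.0496%, with 7 of 8 entries detected, and their part in the result was not tested.

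Both arms of miR-499, which in mouse marks slow fibres and heart, were higher in adult glands. chi-miR-499-5p stood at 43.8, 23.1 and 29.0 CPM at 1 month. In 12-month libraries 3, 4 and 5 it stood at 64.5, 86.3 and 83.0 CPM, and at 24 months at 110.5, 117 and 65.0 CPM. All 6 adult libraries lay above all 3 of 1 month, and 12-month library 4 was only 1.04 times the next of its age. Of all entries tested, 26.3% lay apart upward for 12 against 1 month and 21.3% for 24 against 1 month. At 12 months the mean was 77.9 ± 11.7 CPM and at 24 months 97.5 ± 28.3 CPM, against 32.0 ± 10.6 CPM at 1 month. Between the same libraries leukocyte miRNAs were at 0.111% to 0.149% of counts in adult glands, against 2.62% to 11.0% at 1 month, and epithelial miRNAs at 9.74% to 11.2%, against 0.797% to 5.31%, and their part in the result was not tested. The rise of 24 against 1 month was 1.61 on the log2 scale (SE 0.40, adjusted p = 0.0161). The rise of 12 against 1 month was 1.28 (SE 0.39, adjusted p = 0.0421), and the value for 24 against 12 months was 0.32 (SE 0.39, adjusted p = 0.998).

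chi-miR-499-3p, the other arm of the same hairpin, stood at 9.01, 8.35 and 5.22 CPM at 1 month. In 12-month libraries 3, 4 and 5 it stood at 17.2, 22.7 and 20.5 CPM, and at 24 months at 22.5, 27.2 and 12.55 CPM. Again no adult library reached down to the 1-month level. Its rises were 1.46 (SE 0.42, adjusted p = 0.0289) for 24 against 1 month and 1.42 (SE 0.42, adjusted p = 0.0369) for 12 against 1 month. The longer form miR-499-x was rarer, at 0.494 to 1.39 CPM at 1 month and 1.497 to 5.69 CPM in adult glands, and did not pass (1.68, SE 0.68, adjusted p = 0.083 for 24 against 1 month, and 1.56, SE 0.68, adjusted p = 0.11 for 12 against 1 month). miR-499-y had 16 counts in all, 0 of them at 1 month.

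The calls on miR-499 changed when single libraries were left out. For 24 against 1 month, chi-miR-499-5p did not pass without 24-month library 2 (1.33, adjusted p = 0.0779) or 3 (1.34, adjusted p = 0.0937), and passed without any other single library. chi-miR-499-3p did not pass without 1-month library 3 (1.27, adjusted p = 0.0768), 12-month library 3 (1.32, adjusted p = 0.0631) or 5 (1.31, adjusted p = 0.0645), or 24-month library 2 (1.24, adjusted p = 0.103) or 3 (1.13, adjusted p = 0.135). For 12 against 1 month, neither arm passed without 1-month library 3 or any one library of 12 or 24 months, with values of 0.82 to 1.23 and adjusted p of 0.0943 to 0.281 for chi-miR-499-5p, and 1.02 to 1.34 and 0.0799 to 0.206 for chi-miR-499-3p. Without 1-month library 2 the rises remained. The median of all entries moved in several of these fits. For 12 against 1 month it was −0.02 with all libraries and −0.40 without any one library of 24 months. It was −0.37, −0.13 and −0.45 without 12-month libraries 3, 4 and 5, and 0.02 without 1-month library 3. For 24 against 1 month it was −0.06 with all libraries, and −0.39 and −0.25 without 24-month libraries 2 and 3. The part of this shift in the lost calls was not tested. Scaled by library size alone, chi-miR-499-5p had 1.06 for 12 against 1 month (adjusted p = 0.103), where the median of all entries lay at −0.20.

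**Figure D3:**
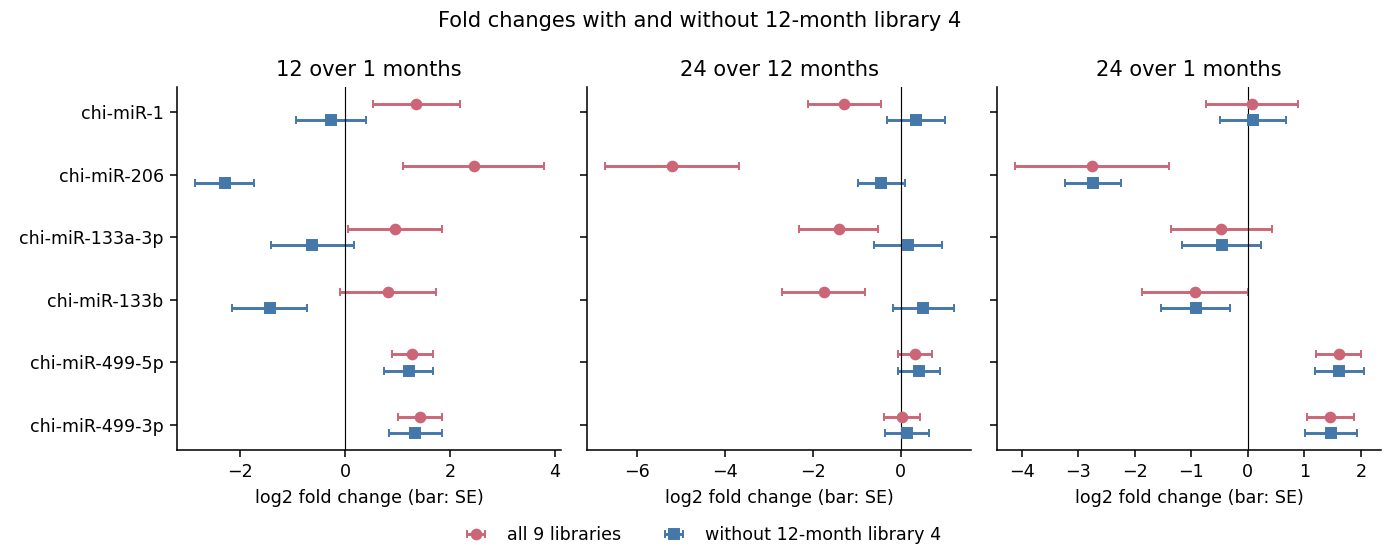
Log2 fold changes (x axis, bars are standard errors derived from the edgeR F test) of the 6 main members in each comparison of ages, with all 9 libraries (circles) and without 12-month library 4 (squares). chi-miR-206 has 2.45 with all libraries and −2.30 without that one for 12 against 1 month, while both arms of miR-499 keep values of 1.21 to 1.62 in the comparisons with 1 month.

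miR-208 was the rarest of the group. chi-miR-208b had 41, 28 and 30 counts at 1 month, 8, 23 and 8 counts in 12-month libraries 3, 4 and 5, and 79, 0 and 0 counts in 24-month libraries 2, 3 and 5. The 24-month goats thus held both its highest level, 7.61 CPM, and the only libraries without it, where 3 counts would be 0.341 and 0.345 CPM. Its fold changes did not pass, with −0.87 (SE 1.38, adjusted p = 0.655) for 12 against 1 month and −0.0 (SE 1.48) for 24 against 1 month. The latter hung on single goats. Without 24-month library 2, its level at 24 months was at least 7.48-fold lower than the mean of 2.57 CPM at 1 month, taking 3 counts per library as the limit, and the fit called that difference (adjusted p = 0.0131). Without 24-month library 3 or 5 instead, the log2 fold change was 0.48 (adjusted p = 0.853) or 0.45 (adjusted p = 0.822). miR-208-y had 9, 45 and 22 counts in goats of 1 month, 0, 2 and 0 in goats of 12 months, and 6, 0 and 2 in goats of 24 months. It was most frequent in 1-month library 2, unlike every other member.

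Counted over the 10 members tested, 2 rose for 12 against 1 month, both arms of miR-499, and none fell, against 5.98% of all 937 entries called higher and 13.2% called lower. The same 2 rose and none fell for 24 against 1 month, against 8.75% called higher and 17.5% lower. A difference between any of the 3 ages was called for 1 member, chi-miR-499-5p (adjusted p = 0.033), against 20.5% of all entries, and chi-miR-499-3p lay just beyond the threshold (adjusted p = 0.0503). In both comparisons with 1 month, the 2 members called higher are 20.0% of those tested, above the share of all entries. They are arms of 1 hairpin and not separate observations, so that share says little about the group. No member was called for 24 against 12 months, nor was any of the 937 entries (0.0%) by edgeR, DESeq2 or limma voom. With an unadjusted threshold of 0.05 there was 1 member, chi-miR-206, against 40 of all entries (4.27%). Ages did not overlap for 3 members in the upward direction for 12 against 1 month (26.3% of all entries), and for 3 upward and 1 downward for 24 against 1 month (21.3% and 25.8%). The upward ones were the 3 tested forms of miR-499, which are not separate observations, and the downward one was chi-miR-206. The median log2 fold change of the 10 members was 1.39 for 12 against 1 month, −1.35 for 24 against 12 months and 0.04 for 24 against 1 month, where the median of all entries was −0.02, −0.03 and −0.06. Without 12-month library 4, when 11 members passed the filter, the members' medians were −1.44, 0.52 and 0.01 in these comparisons.

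**Figure D4:**
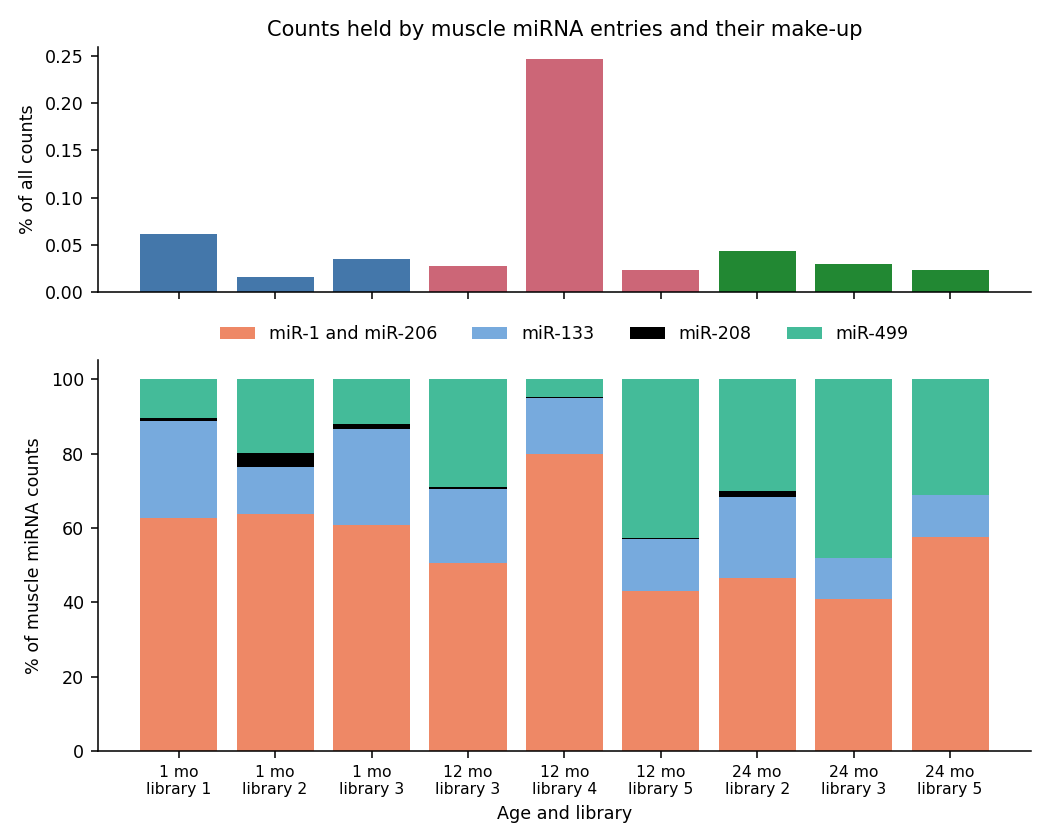
Upper bars give the share of all counts (%) held by the 17 muscle miRNA entries in each library, and lower bars divide those counts (%) by family. Library 4 at 12 months reaches 0.247% of counts, of which 80.0% are miR-1 and miR-206 and 4.86% are miR-499, whereas miR-499 makes up 29.1% to 48.1% in the other 5 adult libraries.

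Within a library the make-up of the group does not depend on scaling. miR-499 made up 10.5%, 20% and 12.1% of the muscle miRNA counts at 1 month, 29.1%, 4.86% and 42.6% in 12-month libraries 3, 4 and 5, and 30.0%, 48.1% and 31.2% at 24 months. In the 5 adult libraries other than library 4 its share was thus above that of every 1-month library. miR-1 with miR-206 made up 40.9% to 63.7% in all libraries but 12-month library 4, where they made up 80.0%.

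There were 3.50, 0.607 and 4.88 counts of chi-miR-1 per count of chi-miR-206 at 1 month, 12.3, 0.983 and 9.11 in 12-month libraries 3, 4 and 5, and 35.9, 9.33 and 19.7 at 24 months. chi-miR-206 therefore equalled or exceeded chi-miR-1 in 12-month library 4 and 1-month library 2 only. The log2 ratio was 4.22 ± 0.97 at 24 months, against 1.12 ± 1.61 at 1 month, a difference of 3.09 with no overlap of ages, and 2.17 without 1-month library 2 (with all libraries, exact two-sided permutation p = 0.1, the smallest that 3 against 3 allows, and 0.48 when adjusted over the 12 ratio tests). The ratio of chi-miR-133a-3p to chi-miR-133b lay between 3.80 and 12.2 in all libraries, and the ages overlapped. The log2 ratio averaged 3.28 ± 0.47 at 12 months and 3.13 ± 0.39 at 24 months, against 2.54 ± 0.55 at 1 month. None of these differences passed (exact p = 0.3 to 0.5, where 3 against 3 cannot go below 0.1). chi-miR-499-5p outnumbered chi-miR-499-3p by 2.77 to 5.55 times in every library. The log2 ratio of these arms was 2.26 ± 0.14 at 24 months, against 1.95 ± 0.06 at 12 months (difference 0.31, exact p = 0.1, adjusted p = 0.48), with the 1-month values at 1.47 to 2.47 spanning both. The ratio of chi-miR-499-5p to chi-miR-133a-3p was 0.294 in 12-month library 4 and 0.379 to 3.83 elsewhere, with overlapping ages (exact p = 0.2 to 0.7).

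The likeness of 2 profiles was measured as the root mean square difference of their log2(CPM + 1) values over the 9 libraries, each centred on its own mean, and given no test. Among 446 non-members with a family name and a mean of at least 10 CPM, the one most like chi-miR-133a-3p was chi-miR-381, at 0.41, a miRNA of the imprinted DLK1-DIO3 cluster in human and mouse. That is as near as chi-miR-1 (0.39) and nearer than chi-miR-133b (0.47). chi-miR-381 stood at 76.8, 11.6 and 24.6 CPM at 1 month. Its levels were 31.2, 206.4 and 34.6 CPM in 12-month libraries 3, 4 and 5, and at 24 months 42.9, 21.8 and 22.7 CPM. The next were miR-486-x and chi-miR-504 at 0.88, chi-miR-195-5p, miR-451-x and chi-miR-190a-5p at 0.94, and chi-miR-655 and miR-4286-z at 0.96. These are far less alike, since the spread of chi-miR-133a-3p about its own mean was 1.19 and the median over all 446 was 1.34. chi-miR-206 lay at 1.65 and did not share the profile beyond 12-month library 4. This was unlike chi-miR-133b, the other miRNA of the skeletal pair, though its listed sequence is the beginning of chi-miR-133a-3p.

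chi-miR-499-5p was nearest to chi-miR-190a-3p (0.25), a non-member, and then to its own other arm (0.28). The next non-members were chi-miR-30b-5p, chi-miR-30b-3p and miR-186-x (0.30 each), chi-miR-101-3p (0.31), miR-30-x (0.33), and miR-107-y and miR-103-y (0.35 each). chi-miR-190a-3p stood at 20.4, 7.32 and 17.0 CPM in 1-month goats, at 32.2, 43.3 and 32.5 CPM in those of 12 months, and at 43.7, 40.8 and 25.2 CPM in those of 24 months. The spread of chi-miR-499-5p was 0.76 and the median over all 446 was 0.88. Members outside its own hairpin lay at 0.92 (miR-133-z) to 2.41 (chi-miR-206), with chi-miR-1 at 1.05, so all were further from it than that median. The non-members named here were picked as the nearest of the 446, so their closeness is set by that choice.

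**Figure D5:**
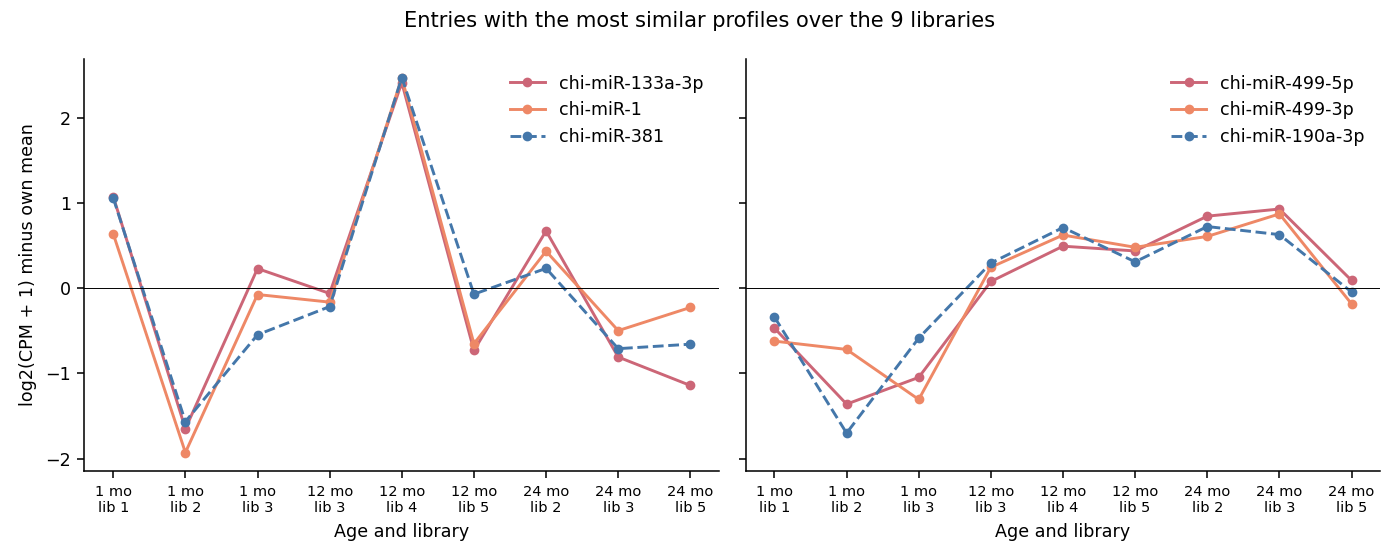
Profiles over the 9 libraries as log2(CPM + 1) minus each entry's own mean (y axis). Left, chi-miR-133a-3p with chi-miR-1 and chi-miR-381, which share the peak in 12-month library 4. Right, both arms of miR-499 with chi-miR-190a-3p, which are low in the 3 libraries of 1 month.

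Other miRNAs with known roles in muscle were read from a list of miR-22, miR-24, miR-27, miR-322, miR-378, miR-424, miR-486 and miR-503, of which 26 of 29 entries were tested. For 12 against 1 month 4 rose and none fell, where 5.98% of all entries were called higher and 13.2% lower. For 24 against 1 month 5 rose and none fell, where 8.75% were called higher and 17.5% lower, and none was called for 24 against 12 months. Those that rose were forms of only 3 miRNAs, miR-22, miR-24 and miR-27, which are also abundant in many other tissues. miR-22-y, the most abundant form of a miRNA rich in heart and skeletal muscle of mice, stood at 14840, 18450 and 13290 CPM in 12-month libraries 3, 4 and 5, against 6300, 5692 and 6967 CPM in 1-month libraries 1, 2 and 3 (log2 fold change 1.30, SE 0.30, adjusted p = 0.0142). miR-486-x, which muscle and red cells both make, stood at 745 CPM in 12-month library 4, against 660 and 258.5 CPM in libraries 3 and 5, so the peak of miR-1 and miR-206 in library 4 was not matched by it. Its fold changes did not pass (−1.03, SE 0.47, adjusted p = 0.121 for 24 against 1 month). chi-miR-378-3p, found with MyoD targets in mouse, stood at 635 CPM in library 4, against 533.5 and 634 CPM in libraries 3 and 5, and did not pass either (−0.71, SE 0.38, adjusted p = 0.189 for 12 against 1 month).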

How the data were processed

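Per the labels' protocols, total RNA of the gland was taken with TRIzol and sequenced by Illumina miRNA protocols; the submitters' processing notes name FastQC and Bowtie, with no version or role. Nothing in the sources used here gives the build, the miRNA database or the handling of reads that match several entries. The authors deposited unscaled read counts per mature miRNA entry. Depth is 8288492 to 13277448 counts. Entries were filtered with edgeR 4.0.16 (minimum count 10, minimum total 15) and all 9 libraries fitted together in R 4.3.3 with TMM factors and the robust quasi-likelihood F test on age (6 residual degrees of freedom). P-values were Benjamini-Hochberg adjusted over all 937 entries within each comparison, at 0.05. Standard errors were derived from the F test, as the absolute log2 fold change over the square root of F. The fits were tested on simulated data. Each library is a separate goat. Ratios of counts had 0.5 added and were tested by exact permutation. The fits were repeated in 20 other ways, DESeq2 1.42.0 and limma 3.58.1 among them, and in 2 more chosen after seeing the data. The named miRNAs are all entries of the number rule and, for likeness, the 8 nearest profiles. Members and lists were chosen with earlier results of these data known.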

Additional observations from a re-analysis of the deposited data

How the results depend on the processing

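Both arms of miR-499 kept a higher level at 12 and at 24 months than at 1 month under every setting tried, with log2 fold changes of 0.82 to 1.97, but the number of members called moved. For 12 against 1 month it was 2, both higher, and 0 with library size alone, with only the libraries of both ages or with a replicate block. It was 1 with at least 10 CPM in 3 libraries, chi-miR-499-3p, and 1 without a filter, where both arms were lost and the call was a lower miR-208-y. For 24 against 1 month it was 2, both higher, and 0 without a filter or with a replicate block. It was 1 with library size alone, a higher chi-miR-499-5p, and 1 from both ages only, a lower chi-miR-206 with both arms lost. For any difference between the ages it was 1, and 0 with library size alone or a replicate block. It was 2, both arms, with the upper quartile, DESeq2 (likelihood ratio test), limma voom, longer forms summed or goat-named entries only, and 2 without a filter, which were miR-1-z and miR-208-y and neither arm. Leaving out 1 or 2 libraries gave 0 to 3, 0 to 3 and 0 to 2 members in these comparisons, with chi-miR-206, chi-miR-208b, miR-208-y or miR-1-y among them in some, and for all entries 67 to 218 (180 in the full fit), 107 to 271 (246) and 125 to 216 (192), with 0 to 2 for 24 against 12 months (0). The lowest of these came without 12-month library 4 and 24-month library 2, and without 12-month library 4 alone the first was 83.

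All entries called for 12 against 1 month were 285 by DESeq2 and 99 among goat-named entries only. For 24 against 1 month they were 159 with at least 10 CPM in 3 libraries and 125 among goat-named entries only, for 24 against 12 months 5 without a filter, and for any difference 303 without a filter, 299 by DESeq2 and 109 among goat-named entries only. Goat names alone leave fewer entries to test; for the other settings the cause was not tested.

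The replicate numbers mark different goats. Deviations from the age means had correlations of −0.208 to 0.141 over the 5 same-numbered pairs, 4 of them negative. Pairs with unlike numbers ran from −0.312 to 0.315. With so few pairs, this cannot decide whether a number also marks shared handling. With the replicate number as a block, 4, 71 and 13 entries were called for 12 against 1 month, 24 against 1 month and any difference, and 0 members in each. Directions turned under the block for 12 against 1 month in chi-miR-206 (−1.93), chi-miR-133b (−0.67) and chi-miR-208b (0.50), for 24 against 12 months in chi-miR-1 (0.48), chi-miR-133b (0.35) and chi-miR-499-3p (−0.09), and for 24 against 1 month in chi-miR-133a-3p (0.48).

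The other directions that turned belonged to values that did not pass, except for 12 against 1 month without 12-month library 4. There the lower chi-miR-206 did pass. With 1-month library 2 left out as well, the lower miR-1-y also passed (−2.14, edgeR adjusted p = 0.0455), against 2.36 in the full fit. By limma voom, chi-miR-206 and chi-miR-133b stood at −0.11 and −0.08 for 12 against 1 month. chi-miR-499-3p stood at −0.02 for 24 against 12 months by limma voom and by library size. For 24 against 1 month chi-miR-1 stood at −0.25 with library size alone, −0.18 without a filter, −0.03 with at least 10 CPM in 3 libraries and −0.04 from both ages only, and chi-miR-208b at 0.10 with the upper quartile, 0.04 with longer forms summed and 0.12 with goat-named entries only. The median of all entries was −0.36, −0.66, −0.16 and −0.19 in the settings named for chi-miR-1, against −0.06 in the full fit. It was 0.07, −0.04 and −0.15 in those named for chi-miR-208b. With libraries left out, values for 12 against 1 month ran from −0.72 to 1.95 for chi-miR-1, −2.40 to 2.66 for chi-miR-206, −1.09 to 1.62 for chi-miR-133a-3p and −1.80 to 1.28 for chi-miR-133b. Every negative one came without 12-month library 4. For 24 against 12 months they ran from −1.47 to 0.35 for chi-miR-1, −1.98 to 0.17 for chi-miR-133a-3p and −2.12 to 0.52 for chi-miR-133b, and for 24 against 1 month from −0.45 to 0.67 for chi-miR-1, −1.47 to 0.21 for chi-miR-133a-3p and −7.93 to 0.48 for chi-miR-208b.

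Without miR-499, the members took 0.0205% of counts at 24 months, against 0.0319% with it. With 3 goats per age, exact tests cannot go below 0.1. Depth limits the miR-208 entries, with 0 counts in several libraries. The fits that left out 2 libraries, and the share without miR-499, were chosen after seeing the data.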
